A study of Mus musculus with 6 samples.

Results

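Members of the integrated stress response and of mitochondrial one-carbon metabolism, 10 genes in all, were examined in mouse quadriceps with and without muscle ERα, the estrogen receptor encoded by Esr1. The 10 genes are 4 mitochondrial folate enzymes (Aldh1l2, Mthfd1l, Mthfd2 and Shmt2), 2 enzymes of serine synthesis (Phgdh and Psat1), 3 transcription factors (Atf4, Atf5 and Ddit3) and the hormone gene Fgf21. They are 10 of the 48795 genes in the count table, and 9 of them passed the filter on low counts. They were chosen by name, as genes of the axis controlled by ATF4, after the comparison of the genotypes had given Aldh1l2 one of its lowest p-values. All differences between the genotypes are therefore given here as descriptions of these libraries.

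The study profiled RNA of quadriceps from male C57BL/6 mice at 20 weeks of age. One group, MERKO, carried a muscle-specific knockout labelled Er_alpha-/-, and the control group was labelled wildtype, with 3 libraries each. The sources used here give neither the promoter behind the muscle-specific deletion nor the number of animals per library, and a p-value reflects only how these 6 libraries spread, which may be technical. Totals ran from 14935532 to 44282448 counts per library. The share of counts on 1 rRNA gene model ran from 0.0433% in control 3 to 32.4% in MERKO 2. Levels are CPM, counts relative to the library total, scaled with trimmed-mean (TMM) factors, and log2 fold changes are MERKO minus control from the edgeR quasi-likelihood fit. Values of single libraries follow the order of replicates 1, 2 and 3. Esr1, the targeted gene, was measured at 6.75, 9.43 and 7.46 CPM in the MERKO libraries, against 25.1, 34.1 and 31.1 CPM in the control libraries. It fell by 1.95 on the log2 scale (SE 0.16, adjusted p = 0.0262, edgeR), and of the 13628 genes tested it alone had an adjusted p under 0.05.

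The integrated stress response begins with kinases that phosphorylate the translation factor eIF2. General protein synthesis then falls, while the mRNA of Atf4 is translated more, so that ATF4 protein is set mainly by translation and not by the level of its mRNA. ATF4 binds, with C/EBP partners, to a composite DNA element and switches on genes of amino acid transport, serine synthesis, one-carbon metabolism and tRNA charging. In skeletal muscle the response is known from mitochondrial disease, where Mthfd2, Phgdh, Psat1 and the secreted factors Fgf21 and Gdf15 are typically induced together. The mitochondrial folate pathway takes one-carbon units from serine through SHMT2, oxidises them with MTHFD2 or MTHFD2L, and releases them as formate through MTHFD1L. ALDH1L2 instead oxidises 10-formyltetrahydrofolate to carbon dioxide and yields NADPH.

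The promoters of the 10 genes were searched for the element that ATF4 and its partners bind. RefSeq promoter windows on GRCm38.p6, from 250 bases before to 50 bases after each annotated start, were found for 9 of the 10 genes, all but Aldh1l2. They were searched on both strands for the core of the C/EBP-ATF response element, TGATGNAA, in which N is any base. The core was found in 1304 of 32851 promoters, or 3.97%. Among the 9 genes it was in 1, Fgf21, or 1 of their 11 promoters. Of 28 genes with a promoter window among known ATF4 targets and tRNA synthetases, 14 held it, in 14 of 33 promoters. The list of targets was drawn up from knowledge that rests partly on this element. The matches before the start of Fgf21 and of 4 of those targets are shown 5′ to 3′ on the strand of the gene, with the core, or its reverse complement, in capitals.
Fgf21: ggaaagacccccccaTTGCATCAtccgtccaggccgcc
Atf3: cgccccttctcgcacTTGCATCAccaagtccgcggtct
Chac1: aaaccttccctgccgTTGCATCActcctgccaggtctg
Vldlr: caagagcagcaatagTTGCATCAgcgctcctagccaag
Asns: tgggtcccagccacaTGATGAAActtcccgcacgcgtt
The stretches lie at chr7:45615607-45615644 (minus strand) for Fgf21, chr1:191183421-191183458 (minus) for Atf3, chr2:119351034-119351071 (plus) for Chac1, chr19:27216805-27216842 (plus) for Vldlr and chr6:7693210-7693247 (minus) for Asns. The first 4 share the 8 letters TTGCATCA, and that of Asns reads TGATGAAA. In Fgf21 the core lay 139 to 132 bases before the start. Neither the cAMP response element TGACGTCA (1.79% of all promoters), the endoplasmic reticulum stress element (CCAAT and CCACG with 9 bases between them, 0.119%) nor the estrogen response element (GGTCA and TGACC with 3 bases between them, 0.0700%) was found in the windows of the 9 genes. No window of the 9 genes or of those 28 target genes held more than 1 of these 4 motifs. A match is a string of letters in a window, and sites outside the window were not searched.

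Per base of exon, the 10 genes spanned a wide range of levels in this muscle. On the scale of CPM per kilobase of exon (RPKM), over all 6 libraries, Atf4 stood far above the others at 45.4 ± 5.47 (SD, n = 6). Atf5 followed at 6.16 ± 1.36, and Ddit3 at 3.67 ± 1.13 and Shmt2 at 3.62 ± 0.50 did not differ beyond their spread. Then came Phgdh at 0.748 ± 0.62, Mthfd2 at 0.642 ± 0.21, Aldh1l2 at 0.559 ± 0.20, Psat1 at 0.442 ± 0.30 and Mthfd1l at 0.354 ± 0.13, whose neighbours in that order lay within each other's spread. Neither group alone had this order. In control it ran Phgdh (1.06), Psat1 (0.568), Mthfd2 (0.502), Aldh1l2 (0.382) and Mthfd1l (0.256), and in MERKO it ran Mthfd2 (0.781), Aldh1l2 (0.735), Mthfd1l (0.453), Phgdh (0.437) and Psat1 (0.316). Fgf21 was last, at 0.0138 RPKM, which rests on 1 read. With the length of the longest transcript in place of all exon bases, 6 of the 10 genes kept their place, and the order among Mthfd2, Phgdh, Psat1 and Aldh1l2 changed.

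The 4 mitochondrial folate enzymes were higher in MERKO by their fitted fold changes, and 2 of them did not overlap between the groups. Aldh1l2 and Mthfd1l made up this pair, whereas Mthfd2 and Shmt2 overlapped. Over all 13628 genes tested, the groups did not overlap with MERKO higher in 6.17% and with MERKO lower in 7.1%, and no member was lower without overlap. Nothing is read from these counts, since Aldh1l2 was chosen for that difference.

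Aldh1l2 (ENSMUSG00000020256.14, GRCm38 chromosome 10, 83487450 to 83534140, minus strand, protein-coding) was measured at 5.26, 6.15 and 5.15 CPM in the MERKO libraries, against 2.48, 3.08 and 3.05 CPM in the control libraries. The lowest MERKO library was above the highest control library, and the spread within each group was small (5.52 ± 0.55 against 2.87 ± 0.34 CPM, SD, n = 3 each). These levels rest on 73 to 173 counts in MERKO and 39 to 166 in control. The log2 fold change was 0.94 (SE 0.17, 95% interval 0.56 to 1.32, adjusted p = 0.631, edgeR), a level in MERKO of 1.91 times that of control. Leaving out each library in turn gave 0.84 to 0.997. Since Aldh1l2 was chosen for this difference, the gap between the groups, the interval and this range are description only. The 3′ end of Aldh1l2 overlaps another gene, D10Wsu102e, which runs on the opposite strand. The annotation places 1056 of the 7503 exon bases of Aldh1l2, or 14.1%, inside exons of that gene, and without a stated strand setting reads there cannot be assigned to 1 of them. D10Wsu102e was measured at 22.3, 46.6 and 26.7 CPM in the MERKO libraries, against 20.6, 32.1 and 15.8 CPM in the control libraries. Its groups overlapped, and its highest libraries were MERKO 2 and control 2, which were also the highest in Aldh1l2 in their groups. Its part in the Aldh1l2 level was not tested.

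Mthfd1l (ENSMUSG00000040675.17, chromosome 10, 3973118 to 4167081, plus strand), the mitochondrial formate-producing synthetase, was measured at 2.34, 2.19 and 1.49 CPM in the MERKO libraries, against 1.09, 1.10 and 1.21 CPM in the control libraries. The control libraries lay close together and all below MERKO, of which MERKO 3 was nearest to them. Its log2 fold change was 0.81 (SE 0.26, 95% interval 0.20 to 1.42), on 14 to 77 counts per library. Mthfd2 (ENSMUSG00000005667.8, chromosome 6, 83305691 to 83325908, minus strand), the dehydrogenase and cyclohydrolase that is high in embryonic and proliferating cells, was measured at 3.44, 2.53 and 2.21 CPM in the MERKO libraries, against 1.85, 1.18 and 2.22 CPM in the control libraries. Control 3 was level with MERKO 3, so the groups met, and the log2 fold change was 0.60 (SE 0.28, interval -0.05 to 1.25). It was 0.37 without MERKO 1. Shmt2 (ENSMUSG00000025403.4, chromosome 10, 127517123 to 127522444, minus strand), which takes the one-carbon unit from serine, was measured at 13.2, 11.0 and 11.8 CPM in the MERKO libraries, against 12.6, 9.63 and 9.37 CPM in the control libraries. Control 1 lay among the MERKO libraries, with a log2 fold change of 0.20 (SE 0.15, interval -0.14 to 0.53). It was 0.35 without control 1, 0.12 without MERKO 1 and 0.11 without control 3.

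**Figure D1:**
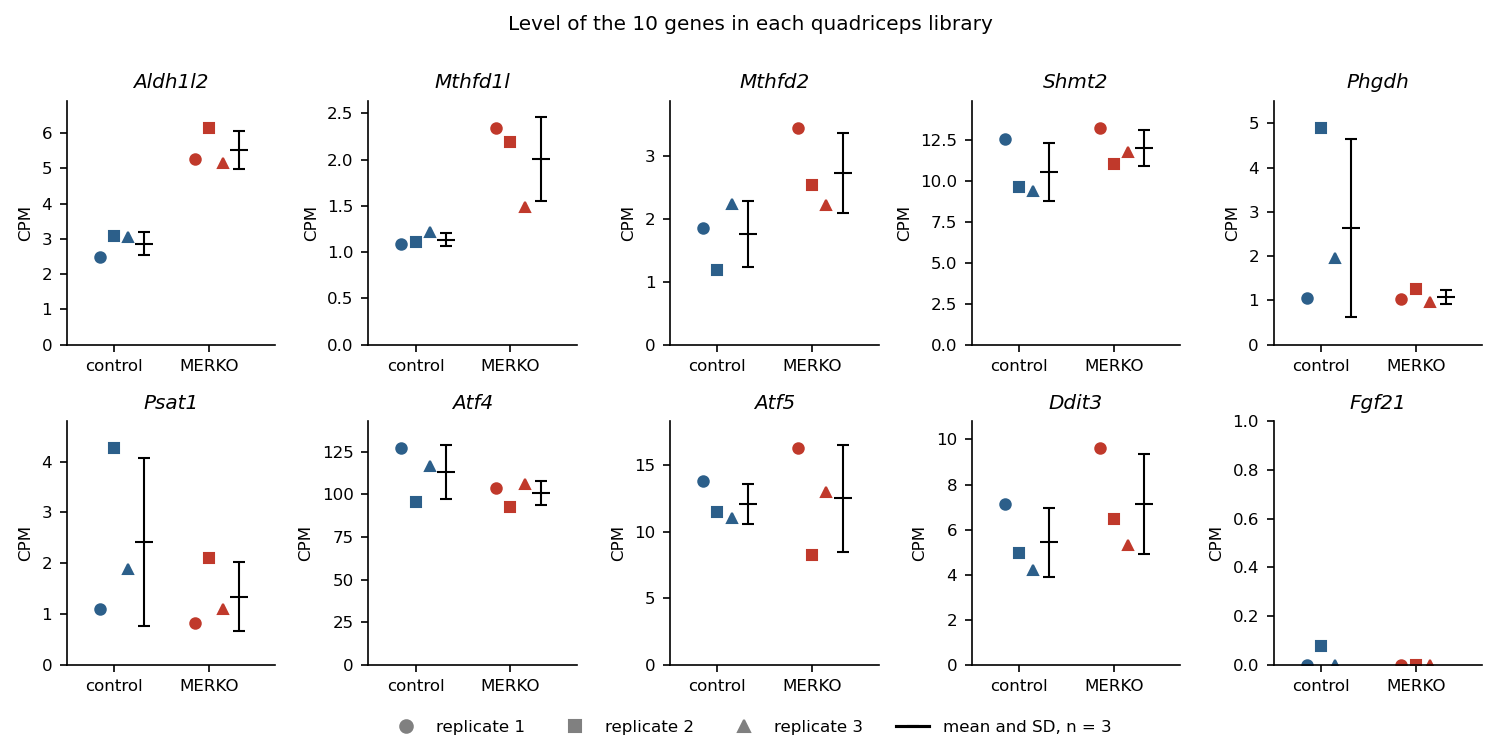
Level in CPM (vertical axes, each starting at 0) of the 10 genes in the control (blue) and MERKO (red) libraries, with a symbol per replicate number and, except for Fgf21, the mean and SD of 3 libraries. Aldh1l2 and Mthfd1l have all MERKO points above all control points, while Phgdh and Psat1 have their highest point in control 2.

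Each of the 4 enzymes has a paralog for a matching step, and the paralogs had smaller fitted differences. Aldh1l1, the cytosolic 10-formyltetrahydrofolate dehydrogenase, was measured at 12.3, 12.3 and 10.1 CPM in the MERKO libraries, against 12.7, 17.1 and 11.7 CPM in the control libraries (log2 fold change -0.25, interval -0.63 to 0.13). Mthfd1, the cytosolic enzyme with 3 activities, had a log2 fold change of 0.04 (-0.19 to 0.28), Shmt1, the cytosolic hydroxymethyltransferase, of 0.11 (-0.24 to 0.47), and Mthfd2l, the mitochondrial isozyme of adult tissues, of -0.20 (-0.64 to 0.24). The groups overlapped in all 4, and whether a pair differed in response was not tested.

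Set against its paralog in the same library, Aldh1l2 was the minor form in every library. The ratio of Aldh1l2 to Aldh1l1 in RPKM was 0.258, 0.301 and 0.308 in the MERKO libraries, against 0.117, 0.108 and 0.157 in the control libraries. Mthfd1l was lower still beside Mthfd1, with ratios between 0.0404 and 0.0652 in MERKO and between 0.0283 and 0.0387 in control. Neither pair of ratios overlapped between the groups, as a description of values already given. Shmt2 and Shmt1 were near each other, with ratios of 0.912 to 1.67 in control and 1.12 to 1.598 in MERKO. The ratio of Mthfd2 to Mthfd2l was 0.408 to 0.998 in control and 1.04 to 1.81 in MERKO, also without overlap, although Mthfd2 itself overlapped. In control 2, where this ratio was lowest, Mthfd2l was at its highest of the 6 libraries. With longest-transcript lengths the ratio of Mthfd2 to Mthfd2l came to 1.04 in control 1 and 1.02 in control 3, so whether Mthfd2 stood below or above Mthfd2l in these 2 libraries depended on the length used.

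**Figure D2:**
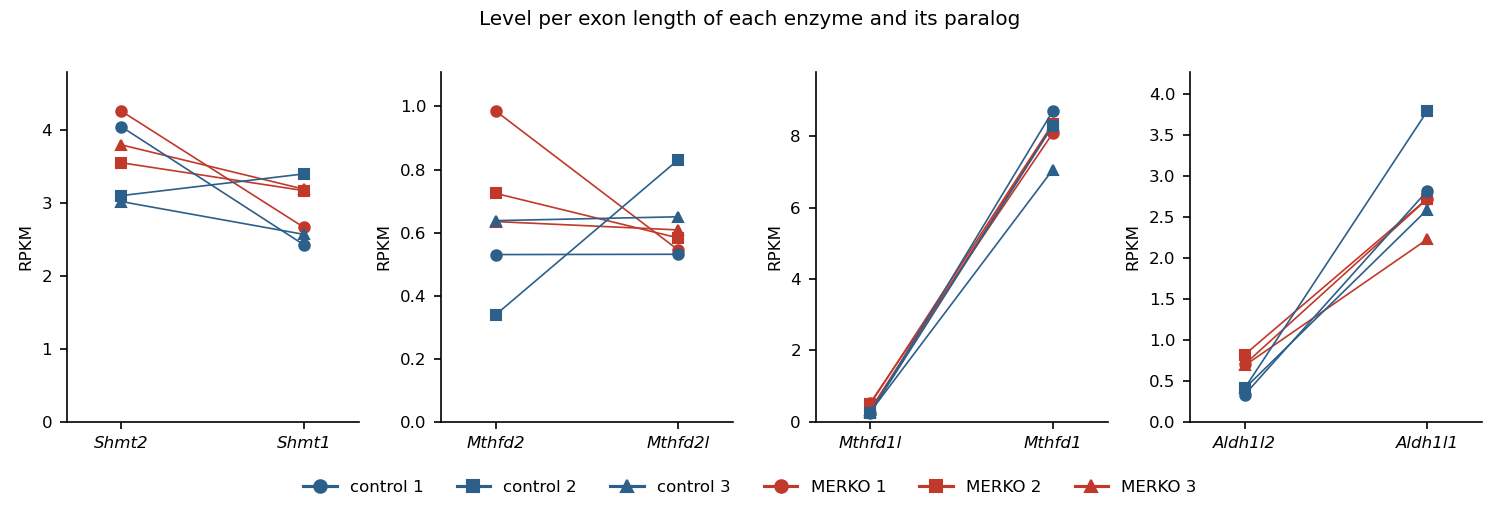
Level per kilobase of exon (RPKM, vertical axes starting at 0) of each mitochondrial enzyme and its paralog, with 1 line per library in blue for control and red for MERKO. The lines of Mthfd1l and Aldh1l2 rise to their paralogs in all 6 libraries, and those of Shmt2 and Mthfd2 run both ways.

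Phgdh and Psat1, which encode the enzymes of the first and second steps of serine synthesis from a glycolytic intermediate, had lower fitted levels in MERKO. Phgdh (ENSMUSG00000053398.11, chromosome 3, 98313170 to 98339990, minus strand) was measured at 1.03, 1.26 and 0.962 CPM in the MERKO libraries, against 1.05, 4.89 and 1.95 CPM in the control libraries. Control 2 stood apart, and control 1 lay among the MERKO libraries. The log2 fold change was -1.21 (SE 0.53, interval -2.43 to 0.000579), and -0.51 without control 2. Psat1 (ENSMUSG00000024640.9, chromosome 19, 15904678 to 15947337, minus strand) was measured at 0.821, 2.10 and 1.11 CPM in the MERKO libraries, against 1.09, 4.26 and 1.89 CPM in the control libraries. Its highest library was again control 2, followed by MERKO 2, and the log2 fold change was -0.86 (SE 0.54, interval -2.10 to 0.38), or -0.26 without control 2 and -0.56 without MERKO 1. Psph, the phosphatase of the last step, did not share this pattern of libraries. It was measured at 5.53, 6.15 and 6.40 CPM in the MERKO libraries, against 5.50, 4.58 and 6.71 CPM in the control libraries, with its lowest level in control 2 (log2 fold change 0.08, SE 0.17).

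Some adipocyte markers shared the order of the control libraries seen in Phgdh and Psat1, which was lowest in control 1 and highest in control 2. All 8 markers of that list had counts, and their summed level ran from 397 to 944 CPM in MERKO and from 1097 to 1713 CPM in control, with control 2 highest. Adipoq, the adiponectin gene, was measured at 2.16, 4.88 and 6.88 CPM in the MERKO libraries, against 4.83, 36.7 and 16.9 CPM in the control libraries, with that order. Cfd, Plin1, Retn and Cidec had it too, so that 5 of the 8 markers did. Within MERKO these 5 markers and Psat1 were lowest in MERKO 1, whereas Phgdh was lowest in MERKO 3. Lep, at 2.73, 11.5 and 14.0 CPM in the control libraries, and Car3, at 952, 1237 and 1263 CPM, were highest in control 3, and Fabp4, at 100.2, 180 and 92.0 CPM, was lowest there. Car3 makes up most of the sum. Of the 8 markers, all were lower in MERKO. An unadjusted p under 0.05 was seen in 7 of them, as in 7.04% of all genes tested, and 0 passed the edgeR threshold. The neutral amino acid transporter gene Slc1a5, at 17.2, 49.0 and 29.3 CPM in control 1 to 3 and between 15.6 and 19.4 CPM in MERKO, had that order too. So did Pycr1, an enzyme of proline synthesis that was looked at after its values were seen, at 0.63, 3.31 and 1.91 CPM in control 1 to 3. Genes outside the adipocyte list had the same control order too, over a narrower range than Adipoq. Examples are the fast-fibre marker Myh4 (55646, 77121, 63393 CPM) and the folate genes Mthfd2l (3.53, 5.52, 4.32 CPM) and Sfxn1 (2.52, 3.39, 2.65 CPM). How common this order is among all genes was not counted. In whole muscle, fewer cells of a type and less RNA per cell cannot be told apart. The part of the adipocyte markers in the serine synthesis levels was not tested.

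**Figure D3:**
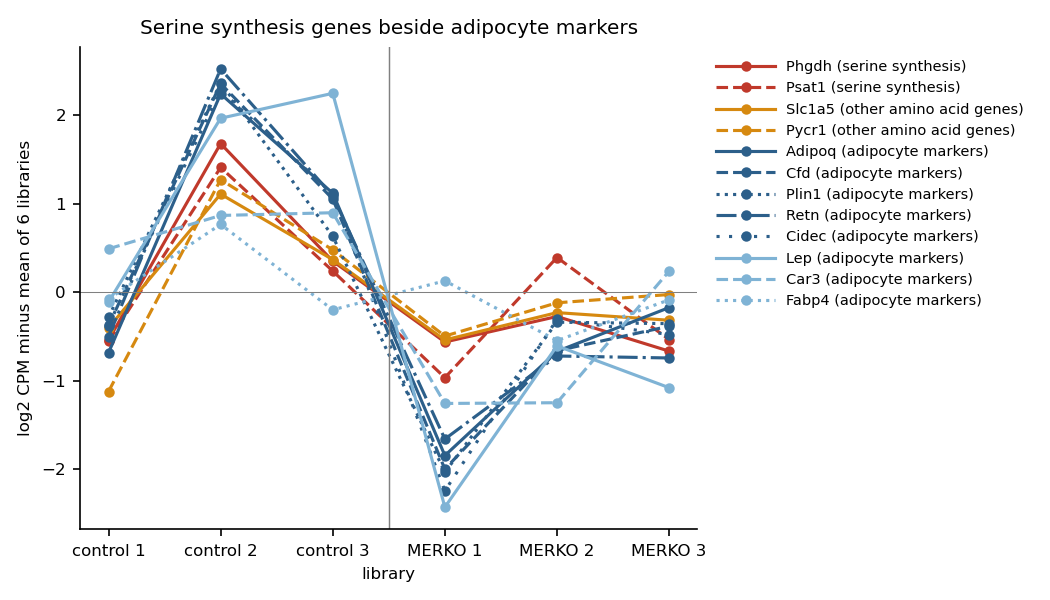
Log2 CPM minus the mean of the 6 libraries (vertical axis) by library (horizontal axis) for the serine synthesis genes Phgdh and Psat1 (red), Slc1a5 and Pycr1 (orange) and the 8 adipocyte markers, in dark blue for the 5 that share the order of the control libraries and in light blue for Lep, Car3 and Fabp4, which do not. Lep and Car3 are highest in control 3 and the other genes in control 2.

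The 3 transcription factors had overlapping groups. Atf4 (ENSMUSG00000042406.7, chromosome 15, 80255184 to 80257541, plus strand), the central factor of the response, was measured at 103, 92.8 and 106 CPM in the MERKO libraries, against 127, 95.7 and 117 CPM in the control libraries. MERKO 2 and control 2 were lowest in their groups, and the log2 fold change was -0.17 (SE 0.12, interval -0.45 to 0.12). With 1102 to 6347 counts per library, its SE was the smallest of the 9 tested genes, and the log2 fold change was -0.08 without control 1, -0.10 without MERKO 2 and -0.27 without control 2. Atf5 (ENSMUSG00000038539.15, chromosome 7, 44812256 to 44816658, minus strand), a related factor tied to the mitochondrial unfolded protein response, was measured at 16.2, 8.25 and 12.9 CPM in the MERKO libraries, against 13.8, 11.4 and 11.0 CPM in the control libraries. MERKO held both its highest and its lowest library. The log2 fold change was 0.07 (SE 0.22, interval -0.45 to 0.58), and -0.17 without MERKO 1, so its sign rested on single libraries. Ddit3 (ENSMUSG00000025408.15, chromosome 10, 127290774 to 127296288, plus strand) encodes CHOP, a partner of ATF4 that is linked to cell death under prolonged stress. It was measured at 9.61, 6.48 and 5.34 CPM in the MERKO libraries, against 7.14, 4.97 and 4.21 CPM in the control libraries. MERKO 1 and control 1 were its highest libraries, with a log2 fold change of 0.42 (SE 0.27, interval -0.20 to 1.03), or 0.12 without MERKO 1, 0.24 without control 3 and 0.67 without control 1. The annotation also gives short exon overlaps with genes on the opposite strand, of 68 bases between Ddit3 and Mars, 13 bases between Ddit3 and Gm4189, 82 bases between Atf5 and each of Nup62 and Il4i1, and 32 bases between Shmt2 and Ndufa4l2. On the same strand, 105 exon bases of Ddit3 (6.13%) are shared with another gene model of that name, which the count table does not hold.

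Ddit3, Atf5 and Shmt2 were each highest in MERKO 1 within MERKO and in control 1 within control. These are also the libraries with high slow-fibre genes. The 6 slow-fibre markers, all with counts, summed to 417 CPM in MERKO 1, to 423 CPM in control 1, but only to between 35.4 and 43.7 CPM in the other 4 libraries. Without MERKO 1 and control 1 together the log2 fold change was 0.38 for Ddit3, -0.05 for Atf5 and 0.27 for Shmt2. The part of slow-fibre content in these levels was not tested.

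Fgf21 (ENSMUSG00000030827.5, chromosome 7, 45613886 to 45615490, minus strand), a hormone that liver and stressed muscle release, had 1 count in control 2 and 0 counts in the other 5 libraries. It did not pass the filter on low counts, and without that filter its adjusted p was 0.789 (edgeR). A count of 0 allows up to 3 counts, which is 0.0551 CPM in the deepest library, control 3, and 0.253 CPM in MERKO 2. This limit covers counting error only. A difference between levels under these limits could not have been seen at this depth. Gdf15, the other secreted factor of the response, had 3, 0 and 3 counts in MERKO 1 to 3 and 0 in each control library, at or under that limit (adjusted p = 0.576 without the filter, edgeR). Klb, the co-receptor for FGF21, had 6 counts in control 2, 11 in control 3 and 0 in the other 4 libraries (adjusted p = 0.344 without the filter, edgeR). Fgfr1, the receptor that pairs with it, stood at 36.9 ± 4.16 CPM (MERKO) against 38.2 ± 9.79 CPM (control).

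Of the 10 genes, 9 were tested and 0 passed the edgeR threshold, where 0.00734% of all genes tested passed. At an unadjusted p under 0.05 there were 2 of the 9, Aldh1l2 and Mthfd1l, both higher, where 7.04% of all genes tested had such a p (3.71% higher and 3.34% lower). DESeq2 called 0 of the 9 (0.165% of all genes with an adjusted p) and limma-voom called 0 (0.00734%). Of the 9, 6 were higher by any amount, as were 52.1% of all genes tested. The median log2 fold change of the 9 was 0.197, against 0.0109 over all genes tested. By role the 4 folate enzymes were all higher, with a median of 0.703, both serine synthesis genes were lower, and the factors were 2 higher and 1 lower, with Atf5 lower when MERKO 1 was left out. Without a filter on low counts, edgeR called Aldh1l2 (adjusted p = 0.0186). Its adjusted p was 0.631 in the main test and ran, across the 16 alternative settings, from 0.0186 to 0.999.

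**Figure D4:**
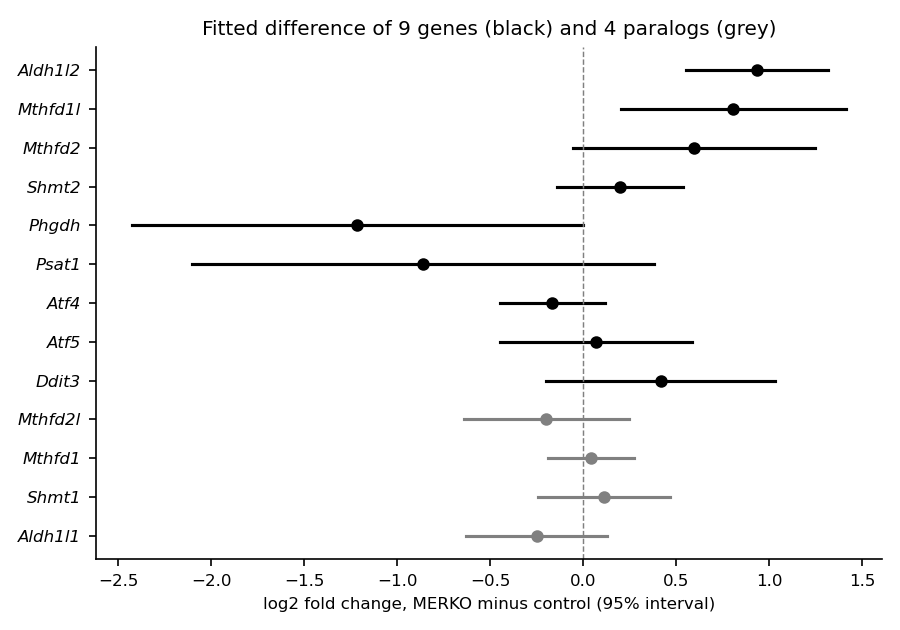
Log2 fold change, MERKO minus control (horizontal axis), with 95% intervals from the edgeR fit for the 9 tested genes (black) and 4 paralogs (grey). The intervals of Aldh1l2 and Mthfd1l lie above 0 and those of the other genes include 0, without any adjustment for how the genes were chosen.

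Likeness of level profiles across the 6 libraries was measured as the root mean square difference of log2 CPM, each gene centred on its own mean. Aldh1l2 and Mthfd1l were the most alike of the 36 pairs at 0.209, followed by Shmt2 with Atf4 at 0.215 and with Ddit3 at 0.235. A small value is also reached by any pair of genes that vary little, as Shmt2 and Atf4 do, whose fitted differences have opposite signs. Phgdh and Psat1 were nearest to each other, at 0.327, and at least 0.842 from every other member. Among 12175 genes that were no members and averaged 0 or more in log2 CPM, the 5 nearest to Aldh1l2 were Zfp366 (0.0967), AU020206 (0.130), Gm44567 (0.143), Runx1 (0.145) and Cchcr1 (0.163). Runx1, a transcription factor that rises in denervated muscle, was measured at 2.43, 2.86 and 2.45 CPM in the MERKO libraries, against 1.47, 1.58 and 1.75 CPM in the control libraries. All 5 were higher in MERKO without overlap, which the choice by likeness to Aldh1l2 favours.

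The other genes of the pathway were taken from lists of known pathway members, drawn up with earlier results of these data known. Of 117 genes, 110 were tested, 55 were higher and 55 lower, and 0 passed the edgeR threshold in either direction. An unadjusted p under 0.05 was seen in 8 of the 110, or 7.27%, and non-overlapping groups in 15, or 13.6%. These shares over all lists lay near the 7.04% and 13.3% of all genes tested. DESeq2 called 1 of the 117, Atf3, and limma-voom called 0.

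Upstream of ATF4, the 15 genes for eIF2 kinases, the phosphatase subunits, eIF2B and the mitochondrial relay had a median log2 fold change of 0.0125, with 8 higher, 7 lower and 0 called. The 1 of the 15 at an unadjusted p under 0.05 was the kinase gene Eif2ak2, named after its values were seen. It was measured at 6.29, 7.07 and 7.75 CPM in the MERKO libraries, against 4.50, 5.92 and 5.40 CPM in the control libraries (log2 fold change 0.42, SE 0.15). Its groups did not overlap, and 2 of the 15 were lower without overlap. Together these were 20.0% of the list, against 13.3% of all genes tested. Dele1, which carries a mitochondrial stress signal to the eIF2 kinase HRI, stood at 60.5 ± 5.20 CPM (MERKO) against 56.7 ± 5.81 CPM (control). Eif2b5, the catalytic subunit of the exchange factor eIF2B, stood at 51.6 ± 0.53 and 54.7 ± 2.27 CPM. Of the 7 partners and feedback factors, 1 was higher, 6 were lower and 0 were called by edgeR. Cebpb, a C/EBP partner of ATF4, was measured at 45.9, 21.0 and 36.7 CPM in the MERKO libraries, against 41.5, 20.7 and 43.9 CPM in the control libraries, lowest in replicate 2 of both groups. Cebpg stood at 47.7 ± 8.83 and 52.4 ± 3.83 CPM, and Cebpd at 30.5 ± 11.8 and 40.8 ± 19.2 CPM. The 1 higher factor, named after its values were seen, was Atf3, a stress-induced repressor and one of the genes with the element shown above. It was measured at 5.47, 2.53 and 2.84 CPM in the MERKO libraries, against 1.39, 0.631 and 1.10 CPM in the control libraries (log2 fold change 1.77, SE 0.37, adjusted p = 0.631, edgeR, and adjusted p = 0.0241, DESeq2).

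Downstream, 21 of 23 known ATF4 targets were tested, with 8 higher, 13 lower, 0 called by edgeR and a median log2 fold change of -0.128. Of the 21, 4 had an unadjusted p under 0.05 (19.0%, against 7.04% of all genes tested) and 5 did not overlap between the groups (23.8%, against 13.3%). The 4 were Atf3, Aldh18a1, an enzyme of proline synthesis, and Slc7a5, an amino acid transporter, all higher, and Eif4ebp1, an inhibitor of translation, which was lower. Beside Atf3 these were named after their values were seen, with log2 fold changes of 0.70 (SE 0.23), 0.93 (SE 0.39) and -0.38 (SE 0.12). Asns, asparagine synthetase and a classical ATF4 target, was measured at 0.851, 0.673 and 0.674 CPM in the MERKO libraries, against 1.39, 1.74 and 0.845 CPM in the control libraries. Its groups met at control 3, and the log2 fold change was -0.76 (SE 0.36, interval -1.58 to 0.06). Trib3, a pseudokinase that feeds back on ATF4, stood at 0.92 ± 0.15 CPM (MERKO) against 1.33 ± 0.32 CPM (control) (log2 fold change -0.49, SE 0.31). Chac1, which degrades glutathione, stood at 54.3 ± 19.2 and 56.2 ± 11.9 CPM, and Sesn2, an inhibitor of mTORC1 under leucine shortage, at 2.63 ± 0.54 and 2.66 ± 0.43 CPM. The targets with the most counts were Gpt2, a mitochondrial alanine aminotransferase, at 338 ± 84.3 and 459 ± 52.9 CPM, and Vldlr, a lipoprotein receptor, at 263 ± 7.67 and 227 ± 10.4 CPM, lying in opposite directions without overlap in either. Of the 15 genes whose window held the core TGATGNAA, 13 were tested, 6 higher and 7 lower, their log2 fold changes having a median of -0.0466 and running from -0.76 (Asns) to 1.77 (Atf3).

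The tRNA synthetase genes under ATF4 control were close to equal in the groups. All 12 had log2 fold changes between -0.0639 and 0.0969, 9 higher and 3 lower, with a median of 0.0144 and 0 called. Eprs stood at 319 ± 25.5 CPM (MERKO) against 316 ± 10.03 CPM (control), and Aars at 98.5 ± 2.48 and 93.0 ± 14.3 CPM. Genes of the endoplasmic reticulum unfolded protein response spanned -0.15 to 0.136 over 16 genes (9 higher, 7 lower, 0 called), with Hspa5, the chaperone BiP, at 135 ± 7.13 and 124 ± 5.28 CPM and Herpud1 at 115 ± 2.62 and 115 ± 5.52 CPM. The 12 mitochondrial chaperones and proteases spanned -0.184 to 0.204 (8 higher, 4 lower, 0 called), with Hspa9, the mitochondrial HSP70, at 391 ± 79.1 and 367 ± 82.6 CPM and Trap1 at 116 ± 5.21 and 128 ± 9.71 CPM.

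Fitted differences of other genes that supply or use the folate pathway ran in both directions. Of 10 tested genes of mitochondrial folate and glycine metabolism beside the members, 2 were higher and 8 lower (median -0.158, 0 called). Sfxn1, the mitochondrial serine transporter, named after its values were seen, was lower without overlap, at 1.92, 1.94 and 2.02 CPM in the MERKO libraries, against 2.52, 3.39 and 2.65 CPM in the control libraries (log2 fold change -0.52, SE 0.21). Slc25a32, the carrier that brings folate into mitochondria, stood at 10.4 ± 0.28 CPM (MERKO) against 10.3 ± 1.06 CPM (control). Dld stood at 150 ± 28.1 and 151 ± 29.7 CPM and Gcsh, a subunit of the glycine cleavage system, at 31.3 ± 3.28 and 34.8 ± 1.56 CPM. Of 15 cytosolic folate genes, 9 were higher and 6 lower (median 0.0428, 0 called), with Gart, an enzyme of purine synthesis, at 38.0 ± 1.26 and 39.8 ± 1.51 CPM and Mthfd1 at 36.7 ± 0.64 and 35.6 ± 3.80 CPM. The 1 of the 15 at an unadjusted p under 0.05 was Mtr, named after its values were seen. It was higher without overlap, at 23.0 ± 2.01 CPM (MERKO) against 18.6 ± 0.95 CPM (control) (log2 fold change 0.30, SE 0.10). The remaining 6 tested genes of serine and sulfur amino acid metabolism were 3 higher and 3 lower (median -0.118, 0 called), among them Mat2a, which makes S-adenosylmethionine, at 126 ± 18.2 and 125 ± 6.74 CPM.

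**Figure D5:**
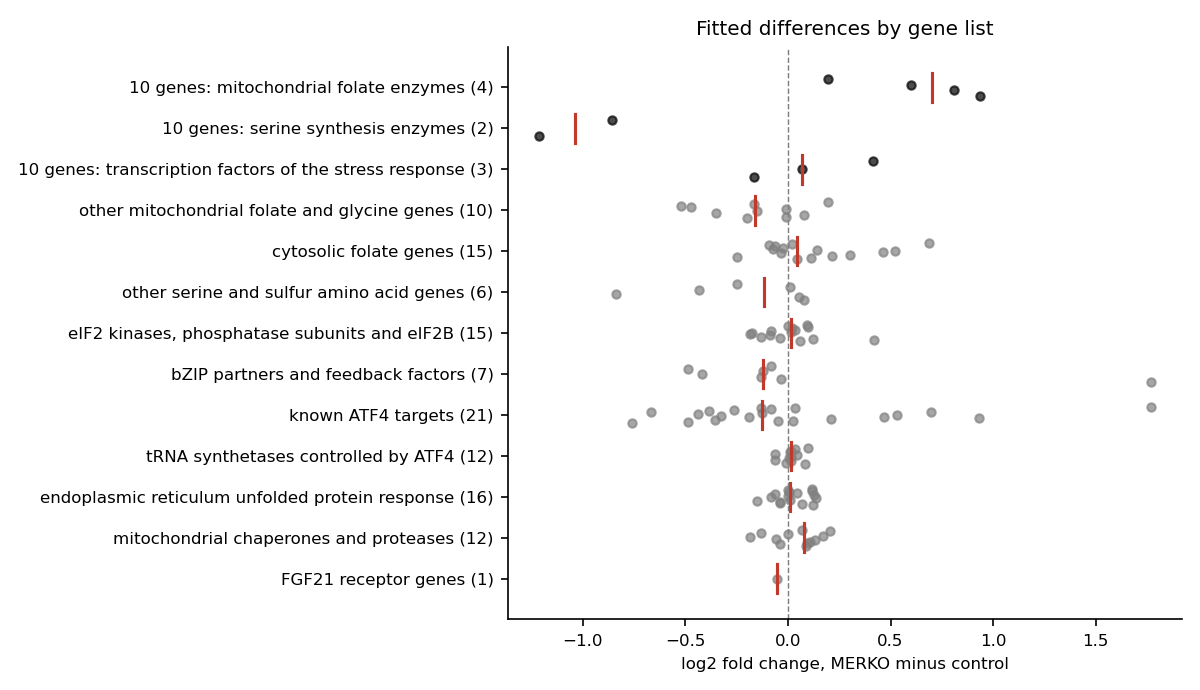
Log2 fold change, MERKO minus control (horizontal axis), of every tested gene by list, with the number tested in brackets, black points for the 9 tested members, grey points for other pathway genes and a red bar at each median. Atf3 is drawn in both lists that hold it, at 1.77, and the tRNA synthetases lie between -0.0639 and 0.0969.

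Markers of other tissues differed between libraries and are set beside the folate enzymes. Muscle itself was present throughout, with the 9 fast-fibre markers summing to between 99940 and 150210 CPM. All 10 tendon markers had counts and summed to 468, 242 and 94.1 CPM in the MERKO libraries, against 97, 36.5 and 79.1 CPM in the control libraries. Of the 10, 9 were higher in MERKO, 8 of them at an unadjusted p under 0.05 and 0 past the edgeR threshold, with a median log2 fold change of 2.21. Kera, Comp and Chad did not overlap between the groups. In Mthfd1l, Mthfd2 and Ddit3 the MERKO libraries had the order of the tendon sum, and the control libraries did not. The 8 markers of Schwann cells and nerve, all with counts, summed to 62.3, 39.6 and 39.7 CPM in MERKO 1 to 3 and to between 27.6 and 36.7 CPM in control, without overlap. The adipocyte sum given above, most of which is Car3, did not overlap either. Of its 8 markers, Adipoq, Cidec and Fabp4 overlapped between the groups and 5 did not. Over all genes tested, 7.1% were lower without overlap. Sums that overlapped between the groups were those of fibroblast markers (7 of 7 with counts, 830 to 1047 CPM in MERKO, 745 to 1182 in control), endothelium (6 of 6, 143 to 190 and 129 to 183), macrophages (6 of 6, 82.2 to 112 and 87.8 to 150), red blood cells (5 of 5, 88.9 to 118 and 91.5 to 162) and satellite cells (5 of 5, 21.3 to 27.7 and 22.3 to 27.3). Neutrophil and mast cell markers (5 of 6 with counts, Ly6g at 0 in all libraries) summed to 4.97 to 8.48 CPM in MERKO and 8.02 to 14.5 in control, and hepatocyte markers (6 of 6) to 2.10 to 3.50 and 1.42 to 20.6. The part of these cell types in the levels of Aldh1l2, Mthfd1l, Mthfd2 and Ddit3 was not tested.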

How the data were processed

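Raw read counts per gene and library were deposited by the authors as 1 table of 48795 versioned Ensembl identifiers. Per the submitters' processing notes, the tools included STAR (2.5.2b), DESeq and HTSeq (0.9.1), with builds mm10 and GRCm38. The sources used here give no roles, annotation release or strand setting. Symbols were matched to 48349 identifiers. Coordinates and exon lengths come from GENCODE M21 (GRCm38), matched without version, and promoters from RefSeq (GRCm38.p6).

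Genotypes were compared by the quasi-likelihood test of edgeR 4.0.16 (R 4.3.3), with genotype as its term, filterByExpr (13628 genes kept), TMM factors and Benjamini-Hochberg adjustment over all genes tested, at 0.05. CPM use the same factors. Likeness used log2 CPM with a prior count of 2. The code was tested on simulated data set to the spread of these libraries. It called 9.25% of simulated 1.5-fold changes, 50.7% of 2-fold changes and 91.8% of 4-fold changes, so smaller changes were mostly missed.

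The members and lists were chosen with earlier results of these data known. Named genes were the members, Esr1, 4 paralogs, 8 known pathway genes, the 2 most abundant genes of each other list, called genes, the 5 genes nearest to Aldh1l2 and defining markers. A count of 0 was given a limit of 3 counts. Alternatives were DESeq2 1.42.0, limma-voom (limma 3.58.1), other scaling and filters, a replicate block, removal of the rRNA gene model and leaving out libraries. A sequence withheld for evaluation is not reported here.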

Additional observations from a re-analysis of the deposited data

How the results depend on the processing

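The count of genes called was 1 in the main test, 23 with DESeq2 (13 higher and 10 lower), 140 without a filter on low counts (86 higher and 54 lower), 93 with library size alone (44 higher and 49 lower), 7 without MERKO 1 and control 1 together (2 higher and 5 lower), and between 0 and 11 when 1 library was left out (0 without MERKO 1 or MERKO 2, 11 without MERKO 3, 2 without control 1 or control 3, 1 without control 2). With library size alone the median of all genes shifted to -0.10, where Aldh1l2 was at 0.81. Of the members, 1 (Aldh1l2) was called without a filter and 0 under the other 15 alternatives. Of the other pathway genes, 1 (Atf3) was called by DESeq2, without a filter, with library size alone and with the replicate block. The members kept their direction under all 16 alternatives except Atf5, at -0.05 without MERKO 1 and control 1 together and between -0.17 and 0.28 when 1 library was left out. Esr1 lay between -2.08 and -1.84 with 1 library left out, with an adjusted p of 0.102 without MERKO 1, 0.0576 without MERKO 2, 0.109 without control 2 and 0.0632 without control 3 (edgeR). Without MERKO 2 and control 2 together it was -1.98 (adjusted p = 0.242). The cause of these changes was not tested.

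The replicate block gave 51 calls (31 higher and 20 lower), with Aldh1l2 at 0.93 (adjusted p = 0.0712). Deviations of same-numbered libraries correlated at 0.448, 0.163 and 0.061 across genes, and MERKO 2 correlated best with control 3 (0.184), so the numbers were not taken as pairs. Depth limits Fgf21, Gdf15 and Klb, which were tested only without the filter on low counts and were not called there.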
